A study of Mus musculus with 4 samples.

Results

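The 10 genes of the YAP and TAZ pathway named here are described across 4 RNA-seq libraries of mouse myoblasts: the transcriptional coactivators Yap1 and Wwtr1 (TAZ), their regulators Lats2 and Amotl2, the target gene Ankrd1, and the CCN genes Cyr61 (Ccn1), Ctgf (Ccn2), Nov (Ccn3), Wisp1 (Ccn4) and Wisp2 (Ccn5). They were chosen by name, under either symbol, with earlier results of these data known. All 10 were found by Ensembl identifier among the 49585 genes of the deposited count files. Proliferating C2C12 cells, a myoblast line of C3H mouse origin, carried either an empty pLXSN retroviral vector (2 libraries) or a retroviral vector that overexpresses C/EBPβ, a DNA-binding factor of the leucine-zipper class (2 libraries). Both groups were selected with G418 at 1200 μg/ml for 7 days, kept as pooled stable cells and grown for 48 h, in medium given for the line as DMEM with 10% fetal bovine serum. The comparison asks how the transcriptome of growing myoblasts differs when C/EBPβ is forced. The labels do not say whether the libraries of a group came from separate transductions, so p-values measure the spread between these libraries, which may be technical.

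In the Hippo pathway a kinase cascade ending in LATS1 and LATS2 phosphorylates YAP and TAZ and holds them in the cytoplasm. Unphosphorylated YAP and TAZ enter the nucleus, bind TEAD transcription factors and switch on genes such as Cyr61, Ctgf, Ankrd1, Amotl2 and Lats2, of which Amotl2 and Lats2 feed back on the pathway. CCN proteins are secreted matricellular proteins that bind integrins and growth factors, and YAP is known in muscle for keeping myoblasts dividing. Cyr61, Ctgf and Ankrd1 can also be driven by SRF with its actin-sensing MRTF coactivators.

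C/EBPβ cells had more RNA of Ctgf, Wisp2 and Amotl2 and less of Nov, whereas the coactivators and Ankrd1 stood within 1.15-fold of the control. Ctgf was 4.58-fold higher, Wisp2 3.36-fold higher and Amotl2 1.94-fold higher, and Nov was 2.87-fold lower. Thus 3 of 10 genes rose, against 14.1% of all 15078 genes tested, and 1 of 10 fell, against 10.8%. Together 4 of 10 passed, against 24.9% of all genes tested. The median log2 fold change (C/EBPβ over empty vector) was 0.21 over the 10 genes and 0.00 over all genes tested. All 10 passed the filter on low counts. The count of genes that rose was 2 without empty vector replicate 2, where Wisp2 was lost, and 4 without C/EBPβ replicate 2, where Cyr61 was gained.

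The libraries held 37566321 to 92027838 counts, the largest being C/EBPβ replicate 2, so that 1 count was worth 0.0109 to 0.0266 CPM (counts scaled by the library total, and for the levels of single genes also by a TMM factor between libraries). Cebpb itself stood at 85.0 and 76.8 CPM in the empty vector libraries and at 482.9 and 473.0 CPM with C/EBPβ, where reads of the vector copy, if they map to the gene, are included. All 6 myoblast markers were tested, and Myod1, Des, Cdh15 and Chrna1 fell while Myf5 and Pax7 rose. Summed over the myoblast list, the level was 2645 to 2807 CPM in empty vector libraries and 1609 to 1854 CPM with C/EBPβ. Markers of differentiated myocytes fell in 9 of 9 tested genes, and their summed level of 10 genes went from 211.3 to 223.1 CPM down to 36.2 to 56.1 CPM. In bulk RNA, fewer cells of a type and less RNA per cell cannot be told apart. Of 9 fibroblast markers 7 were tested, 4 rose and 1 fell, with a summed level of 2164 to 2455 CPM against 5995 to 6818 CPM with C/EBPβ (475.6 to 553.1 against 875.2 to 1290 CPM without Col3a1). That remainder still held a further collagen, Col1a1, at 110.3 and 90.6 CPM against 864.1 and 493.8 CPM with C/EBPβ. Pdgfra and Mfap5 also rose, Cd34 fell, and Dcn and Ly6a did not pass. Of 11 endothelial and mural markers 5 were tested and 3 rose (214.8 to 252.8 against 443.9 to 542.0 CPM), with Tie1 at no more than 2 counts in any library. That sum rested on the mural receptor Pdgfrb, without which it was 55.4 to 61.7 against 67.8 to 77.0 CPM, and Vwf and Kcnj8, the other genes that rose, were each under 1 CPM. Of 9 bone and cartilage markers 6 were tested, 3 rose and 1 fell (162.8 to 168.4 against 245.0 to 429.6 CPM). Alkaline phosphatase, Alpl, alone carried that higher sum, with 6 and 2 counts in the controls and 10815 and 9691 with C/EBPβ, and without it the level was lower with C/EBPβ, at 139.7 to 149.8 CPM against 162.7 to 168.3 CPM, as Sox9 fell. Of 9 leukocyte markers 3 were tested and 2 rose (5.38 to 6.21 against 12.8 to 15.1 CPM, or 5.32 to 6.06 against 7.68 to 7.94 CPM without Lyz2), and the defining genes Tyrobp, Adgre1 and Cd3e had 0 counts in every library. The part of these marker differences in the results below was not tested.

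Promoter sequence was at hand for 6 of the 10 genes (Cyr61, Yap1, Wwtr1, Ankrd1, Amotl2 and Lats2) in RefSeq's table on GRCm38.p6. The 250 bases before the start were searched on both strands for GGAATG, the core that TEAD factors bind, for TTGCNNAA, a C/EBP-type element, and for the TATA-box letters TATAAA. These motifs share no overlap in the windows shown. Among all 32536 distinct windows of that length, 12.6% held the TEAD letters, 9.57% the C/EBP letters and 12.3% the TATA letters. At least 1 TEAD match stood in 5 of the 6 genes, the exception being Lats2 in both of its windows, and none of the 6 held a C/EBP match. Ctgf, Nov and Wisp2, which passed the test, had no window and were not searched. A match is a description of these letters only. The windows of 3 target genes that hold the TEAD letters are shown: Amotl2, which rose, and Cyr61 and Ankrd1, which did not pass the test. The difference between the responses of these genes was not tested. Capitals mark the matches, and each sequence runs 5′ to 3′ on the gene's own strand, minus for Cyr61 (chr3:145649986-145650235) and Ankrd1 (chr19:36119845-36120094) and plus for Amotl2 (chr9:102717554-102717803).
Cyr61: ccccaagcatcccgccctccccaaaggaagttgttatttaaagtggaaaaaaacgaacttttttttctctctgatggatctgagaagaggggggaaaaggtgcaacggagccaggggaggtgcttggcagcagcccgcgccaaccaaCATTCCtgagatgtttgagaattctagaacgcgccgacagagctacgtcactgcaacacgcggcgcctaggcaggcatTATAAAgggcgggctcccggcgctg
Ankrd1: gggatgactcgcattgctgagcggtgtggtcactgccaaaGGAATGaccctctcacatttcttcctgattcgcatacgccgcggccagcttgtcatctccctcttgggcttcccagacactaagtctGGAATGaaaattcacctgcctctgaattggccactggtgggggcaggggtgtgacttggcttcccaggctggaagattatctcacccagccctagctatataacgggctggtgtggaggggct
Amotl2: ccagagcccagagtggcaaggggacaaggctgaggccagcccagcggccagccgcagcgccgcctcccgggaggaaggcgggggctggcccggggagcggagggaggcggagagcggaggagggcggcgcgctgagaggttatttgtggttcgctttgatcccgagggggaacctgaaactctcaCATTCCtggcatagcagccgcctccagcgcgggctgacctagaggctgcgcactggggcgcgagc
In Cyr61 the TEAD letters lie 103 to 98 bases before the start, on the other strand, and TATAAA lies 25 to 20 bases before it. Ankrd1 has a pair of TEAD matches, 210 to 205 and 123 to 118 bases before its start. Amotl2 has one 65 to 60 bases before the RefSeq start, which lies inside the gene's span in the count files' annotation.

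**Figure D1:**
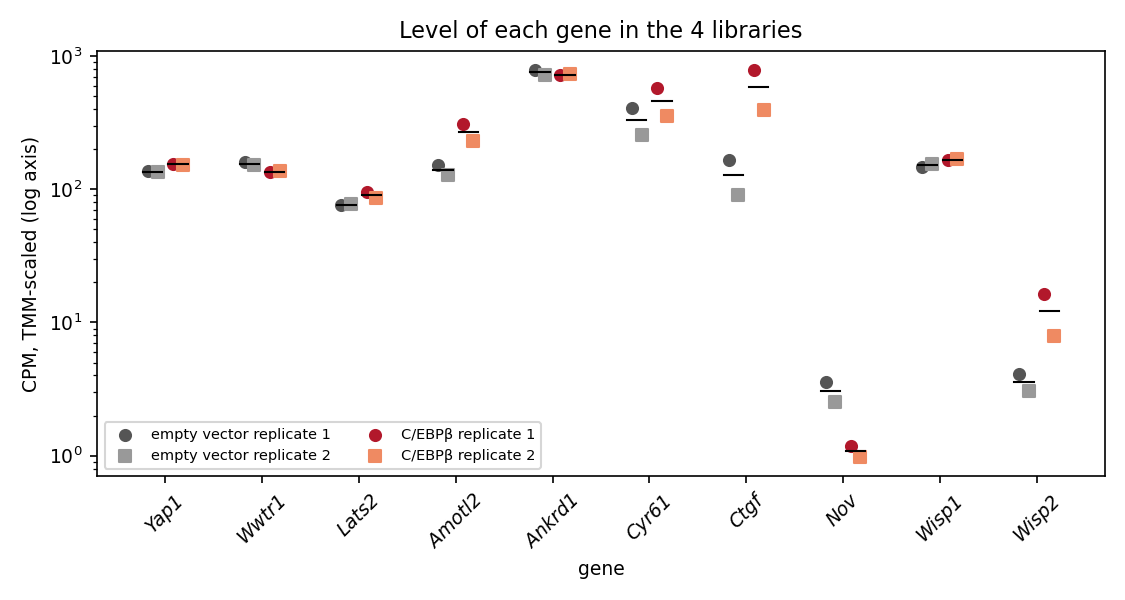
Level of each of the 10 genes in CPM (TMM-scaled, log axis) in the 2 empty vector libraries (grey) and the 2 C/EBPβ libraries (red), with a line at each group mean. Ctgf, Wisp2 and Amotl2 are higher and Nov lower in both C/EBPβ libraries, and Cyr61 and Ankrd1 overlap between groups. Replicate 1 lies above replicate 2 in both groups for Cyr61, Ctgf, Wisp2, Amotl2 and Nov, and narrowly for Yap1.

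The RNA of the coactivators differed little between groups. Yap1 (ENSMUSG00000053110, chromosome 9, 7931999 to 8004596, minus strand of GRCm38, protein-coding) had 135.9 and 135.0 CPM in empty vector libraries and 153.9 and 153.2 CPM with C/EBPβ. The replicates of each group lay close together and the groups did not overlap, but the log2 fold change of 0.18 (SE 0.08) did not pass, with adjusted p = 0.129. Each adjusted p comes from the quasi-likelihood test in edgeR after Benjamini-Hochberg correction over all genes tested, unless another source is named. Wwtr1, which encodes TAZ, the paralog of YAP (ENSMUSG00000027803, chromosome 3, 57455649 to 57575910, minus strand), had 159.3 and 152.4 CPM against 134.9 and 136.1 CPM. Its groups did not overlap either, in the opposite direction to Yap1, and the log2 fold change was -0.20 (SE 0.08, adjusted p = 0.100). In the authors' deposited table, where 26.0% of genes with an adjusted p were past 0.05, Wwtr1 passed, at a log2 fold change of -0.25 (adjusted p = 0.0430), and Yap1 did not (0.14, adjusted p = 0.214). The mean signal of Wwtr1 there was 1.32 times that computed from these 4 libraries, and the libraries behind that table are not named. Compared in TPM, counts per exon length scaled to a fixed library sum, Wwtr1 exceeded Yap1 in every library, 2.27 and 2.19 times with empty vector and 1.70 and 1.72 times with C/EBPβ. The ratio was thus lower in both C/EBPβ libraries, a difference for which no test was made.

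The kinase that restrains YAP and TAZ and the scaffold that retains them in the cytoplasm gave unequal results. Lats2, the kinase (ENSMUSG00000021959, chromosome 14, 57642077 to 57758388, minus strand), had 75.5 and 77.4 CPM against 95.0 and 86.2 CPM with C/EBPβ. The groups did not overlap, and the log2 fold change of 0.24 (SE 0.08) did not pass (adjusted p = 0.0682). Amotl2, an angiomotin-family protein that binds YAP at cell junctions (ENSMUSG00000032531, chromosome 9, 102716672 to 102733418, plus strand), had 151.4 and 128.1 CPM with empty vector and 309.8 and 231.5 CPM with C/EBPβ. Both C/EBPβ libraries were above both controls, and Amotl2 rose with a log2 fold change of 0.95 and an SE of 0.14 (adjusted p = 0.00198). Its log2 fold change lay between 0.73 and 1.15 when any 1 library was left out. Groups failed to overlap in 8 of the 10 genes, against 66.2% of all genes tested, and 4 of these 8 genes did not pass the test.

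Ankrd1, a nuclear ankyrin-repeat protein of striated muscle and a standard YAP readout (ENSMUSG00000024803, chromosome 19, 36111965 to 36119844, minus strand), was the most abundant of the 10 genes in TPM in every library. It had 783.8 and 720.9 CPM in empty vector libraries and 721.0 and 730.2 CPM with C/EBPβ, so that the groups overlapped and differed by less than the spread between the controls. The log2 fold change was -0.05 (SE 0.10, adjusted p = 0.741). Its sign turned without empty vector replicate 1, where it was 0.01.

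The CCN genes moved apart from one another. Cyr61, a matricellular protein that supports adhesion and migration (ENSMUSG00000028195, chromosome 3, 145646976 to 145649981, minus strand), had 406.6 and 253.7 CPM with empty vector and 570.6 and 353.8 CPM with C/EBPβ. Replicate 1 was the higher library in each group, and the lower C/EBPβ library lay below the higher control. With a log2 fold change of 0.48 (SE 0.25) Cyr61 did not pass (adjusted p = 0.204), nor in DESeq2 (adjusted p = 0.548) or the authors' deposited table (0.42, adjusted p = 0.364). Cyr61 passed in 3 of 10 alternatives. Leaving out C/EBPβ replicate 2 gave 0.79 (adjusted p = 8.59e-07), and testing all genes unfiltered gave 0.49 (adjusted p = 2.06e-05), in each of which edgeR used a spread pooled over genes and not the gene's own. It also passed with a replicate block (0.48, adjusted p = 4.14e-04). That fit, too, leaned more on the pooled spread than the fit without blocks, with 27.3 against 6.31 prior degrees of freedom. With C/EBPβ replicate 1 left out the log2 fold change was 0.10, with empty vector replicate 2 left out 0.18, and with empty vector replicate 1 left out 0.86.

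Ctgf, the connective tissue growth factor that promotes matrix deposition (ENSMUSG00000019997, chromosome 10, 24595442 to 24598683, plus strand), had the largest log2 fold change of the 10 genes in size in the fit of all 4 libraries. It had 166.0 and 91.2 CPM with empty vector and 783.8 and 395.4 CPM with C/EBPβ. The lower C/EBPβ library was above the higher control, and replicate 1 was again the higher library in each group. The group means were 128.6 ± 52.9 and 589.6 ± 274.7 CPM (SD, n = 2), and Ctgf rose with a log2 fold change of 2.19 and an SE of 0.34 (adjusted p = 0.00237). Of all genes tested, 3.28% had an absolute log2 fold change at least as large. Over the 4 fits that left out a library, the value ranged from 1.62 without C/EBPβ replicate 1 to 2.69 without empty vector replicate 1. Without C/EBPβ replicate 1 the change of Nov was about as large in size, at -1.64. The authors' deposited table gave 2.03 (SE 0.34, adjusted p = 5.09e-08).

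Wisp2, the CCN protein that lacks the C-terminal cystine-knot domain of its relatives (ENSMUSG00000027656, chromosome 2, 163820861 to 163833146, plus strand), was expressed at a low level. It had 4.08 and 3.04 CPM with empty vector and 16.4 and 7.97 CPM with C/EBPβ, from 168, 115, 627 and 732 counts. The groups did not overlap, and the C/EBPβ libraries lay far from each other. Wisp2 rose with a log2 fold change of 1.75 and an SE of 0.33 (adjusted p = 0.00550). Leaving out empty vector replicate 2 ended the call, at 1.55 with adjusted p = 0.0552. Without C/EBPβ replicate 1 the value was 1.16.

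Nov, a CCN protein that can oppose Ctgf (ENSMUSG00000037362, chromosome 15, 54745702 to 54754039, plus strand), was the only one of the 10 genes that passed as lower in edgeR, while Wwtr1 also did in the authors' deposited table. It had 3.57 and 2.51 CPM with empty vector and 1.18 and 0.980 CPM with C/EBPβ, from 147, 95, 45 and 90 counts. Both C/EBPβ libraries were below both controls, and Nov fell, with a log2 fold change of -1.52 and an SE of 0.25 (adjusted p = 0.00299). Its level was under the stricter filter of 5 CPM in 2 libraries, where it was not tested. The authors' deposited table gave -1.49 (adjusted p = 1.10e-07), with a mean signal for Nov 7.58 times that computed from these 4 libraries.

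Wisp1, a CCN protein known as a Wnt target (ENSMUSG00000005124, chromosome 15, 66891320 to 66923201, plus strand), had 147.4 and 154.2 CPM against 166.1 and 167.4 CPM. The groups did not overlap, and the log2 fold change of 0.14 (SE 0.08) did not pass (adjusted p = 0.228). Wisp3 (Ccn6), the remaining CCN gene, had 0 and 1 counts with empty vector and 0 and 1 with C/EBPβ, and was not tested.

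**Figure D2:**
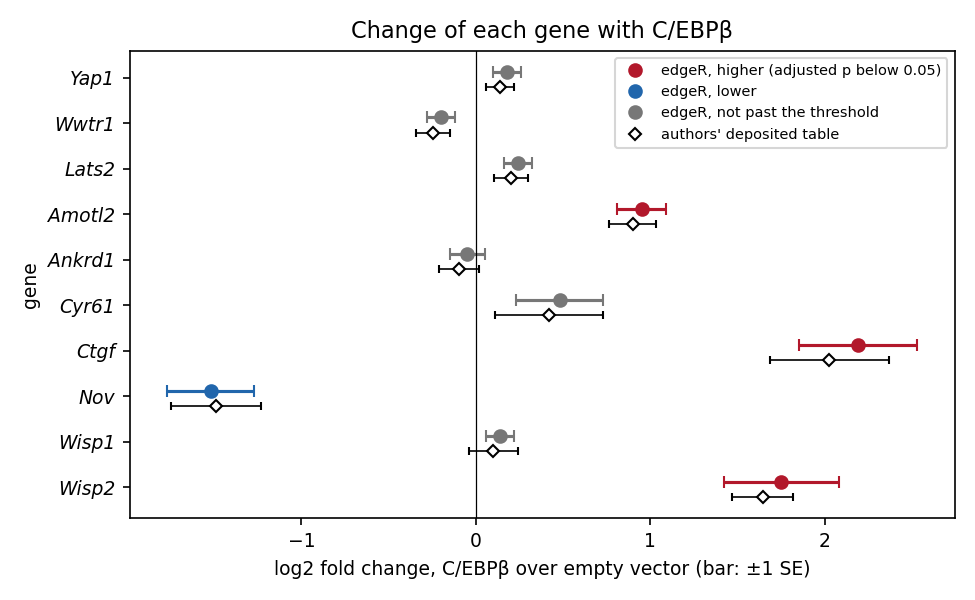
Log2 fold change (C/EBPβ over empty vector) of each gene with its SE, from the edgeR fit (filled circles, red or blue where adjusted p was below 0.05) and from the authors' deposited table (open diamonds). Ctgf, Wisp2 and Amotl2 lie to the right at 2.19, 1.75 and 0.95, Nov to the left at -1.52, and Ankrd1 at -0.05.

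In TPM the order of the 10 genes was led by Ankrd1 in both groups, at 1388 ± 21.2 TPM with empty vector and 1351 ± 18.1 TPM with C/EBPβ (mean ± SD, n = 2). Cyr61 came next with empty vector, at 529.1 ± 151.1 TPM, ahead of Ctgf at 145.2 ± 53.8 TPM. With C/EBPβ these neighbours stood at 751.6 ± 246.1 and 676.4 ± 312.4 TPM and did not differ beyond their spread. In empty vector cells Ctgf and Wwtr1 (106.2 ± 1.34 TPM) also lay within their spread, since Ctgf was at 107.2 TPM in replicate 2. Wisp1 at 89.2 ± 6.75, Amotl2 at 72.2 ± 5.36, Yap1 at 47.7 ± 1.86 and Lats2 at 34.1 ± 2.10 TPM followed. Wisp2 at 6.01 ± 0.987 and Nov at 3.44 ± 0.702 TPM closed the order. With C/EBPβ, Amotl2 at 141.3 ± 28.3 TPM stood above Wisp1 at 99.3 ± 0.989 and Wwtr1 at 93.1 ± 0.990 TPM. The lower ranks were unchanged, from Yap1 at 54.5 ± 0.0585 and Lats2 at 40.8 ± 2.60 to Wisp2 at 20.8 ± 10.1 and Nov at 1.24 ± 0.156 TPM.

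The makeup of CCN RNA differed between groups. Summed over the 5 CCN genes described, the level was 914.3 and 631.6 TPM with empty vector and 1951 and 1148 TPM with C/EBPβ. Ctgf made up 20.0% and 17.0% of this sum with empty vector and 46.0% and 39.7% with C/EBPβ. The share of Cyr61 was 69.6% and 66.9% against 47.4% and 50.3%. Ctgf thus stood at 0.288 and 0.254 times the level of Cyr61 in the controls, and at 0.969 and 0.789 times in C/EBPβ cells. These ratios lay closer together within each group than the levels of either gene, whose replicates differed together. Wisp1 held 9.23% and 14.9% against 5.05% and 8.71%. The share of Nov was 0.430% and 0.466% against 0.0690% and 0.0980%. Wisp2 took 0.733% and 0.840% of the sum in the controls and 1.43% and 1.19% with C/EBPβ.

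**Figure D3:**
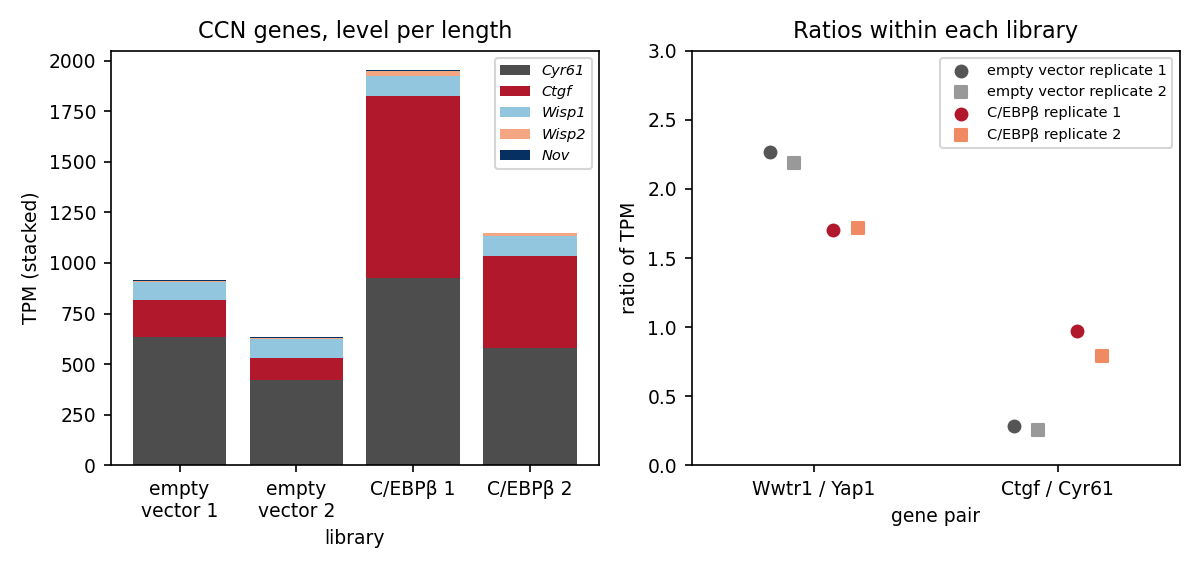
Left, TPM of the 5 CCN genes stacked for each library. Right, the ratio of TPM of Wwtr1 over Yap1 and of Ctgf over Cyr61 in each library, where the C/EBPβ libraries (red) lie at 1.70 and 1.72 for the first pair and at 0.969 and 0.789 for the second, against 2.27 and 2.19 and 0.288 and 0.254 with empty vector (grey).

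The remaining pathway genes were read from 5 lists, beside the same background of 14.1% of all tested genes higher and 10.8% lower. Of 21 Hippo kinases and upstream regulators 2 rose, 2 fell and 17 did not pass, with a median log2 fold change of -0.02. The risers were the giant protocadherin Fat4, at 7.17 and 4.55 CPM against 65.9 and 41.1 CPM (log2 fold change 3.18, adjusted p = 1.10e-04), and its partner Dchs1, at 0.656 and 0.159 against 3.54 and 1.97 CPM (2.68, adjusted p = 0.00561). The value of Dchs1, with 27 and 6 counts in the controls, was 4.06 without empty vector replicate 1. Wwc1 (KIBRA), a scaffold that activates the LATS kinases, fell by 1.95 on the log2 scale, from 9.46 and 10.7 CPM to 1.99 and 3.07 CPM (adjusted p = 3.51e-04). Stk4 (MST1), a kinase that acts upstream of LATS, fell by 0.32 (adjusted p = 0.0287). Stk4 no longer passed when empty vector replicate 2 (adjusted p = 0.0741), C/EBPβ replicate 1 (0.126) or C/EBPβ replicate 2 (0.165) was left out.

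TEAD factors and their VGLL cofactors moved in both directions, 3 of 7 tested rising and 3 falling, with a median of 0.12. Among the DNA-binding partners of YAP and TAZ, Tead3 rose from 28.6 and 26.1 to 47.2 and 40.1 CPM (log2 fold change 0.67, adjusted p = 0.00291). Tead2 fell by 0.76, from 82.4 and 82.2 CPM to 46.7 and 50.3 CPM (adjusted p = 3.80e-04). Tead4, which is known for driving muscle differentiation genes, fell by 0.64 (adjusted p = 0.0103). Any link to the fall in the 9 tested myocyte markers was not tested. Vgll3 rose by 1.12, from 48.6 and 45.3 to 110.5 and 93.9 CPM, and Vgll4, a cofactor that competes with YAP for TEAD, by 0.41 (adjusted p = 0.00763). Vgll4 no longer passed when C/EBPβ replicate 1 was left out (adjusted p = 0.0653). Vgll2, a muscle cofactor, fell from 22.0 and 25.6 to 6.92 and 9.66 CPM (adjusted p = 4.20e-04). Tead1 did not pass (0.12, adjusted p = 0.400), and Vgll1 had 0 counts in every library, which allows up to 0.0326 to 0.0799 CPM (3 counts per library, for counting error only).

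Of 17 further YAP and TAZ target genes, 6 rose, 2 fell and 9 did not pass, with a median of 0.15. Nt5e, the ectonucleotidase CD73, rose from 5.57 and 5.29 to 24.9 and 41.2 CPM (log2 fold change 2.61, adjusted p = 1.35e-04). F3, tissue factor, rose from 23.6 and 15.8 to 98.4 and 62.3 CPM (2.02), and Crim1, a membrane protein that binds BMPs, by 1.02. Gadd45a, a stress-inducible growth-arrest gene, fell by 1.01, from 60.7 and 54.9 to 26.3 and 31.1 CPM, and Igfbp3, an IGF-binding protein, by 0.75.

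Of 10 receptor genes for CCN proteins 9 were tested, of which 2 rose, 1 fell and 6 did not pass, with a median of 0.24. Itga5, the fibronectin receptor chain, rose from 275.5 and 297.3 to 475.9 and 408.7 CPM (log2 fold change 0.63, adjusted p = 0.00308). Itga6, a laminin receptor chain that also binds Cyr61, fell by 1.56, from 112.9 and 126.9 to 34.5 and 46.6 CPM (adjusted p = 1.57e-04). Lrp1, an endocytic receptor that takes up Ctgf, rose by 0.43 (adjusted p = 0.0401), and did not pass when empty vector replicate 1 (0.33, adjusted p = 0.167), empty vector replicate 2 (0.52, 0.0544) or C/EBPβ replicate 1 (0.27, 0.245) was left out. Itgam, a leukocyte integrin, had 0 counts in every library.

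Of 14 genes around SRF and its MRTF coactivators 6 rose, 0 fell in edgeR or in DESeq2 and 8 did not pass, with a median of 0.22, and 1 was lower at an unadjusted p under 0.05 in edgeR. The latter was Vcl, the focal adhesion protein vinculin, at -0.27 with adjusted p = 0.125, and it passed without empty vector replicate 1 (-0.41, adjusted p = 0.0326). Cnn1, smooth-muscle calponin, rose from 2.38 and 1.16 to 61.6 and 33.0 CPM (log2 fold change 4.71, adjusted p = 8.39e-05). Tagln, transgelin, rose by 2.07 (adjusted p = 0.00169) and Myl9, a myosin regulatory light chain, by 1.43 (adjusted p = 2.10e-04). The plot of the lists shows Cnn1, Fat4 and Dchs1 at its upper end and Wwc1, Itga6 and Vgll2 at its lower end.

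**Figure D4:**
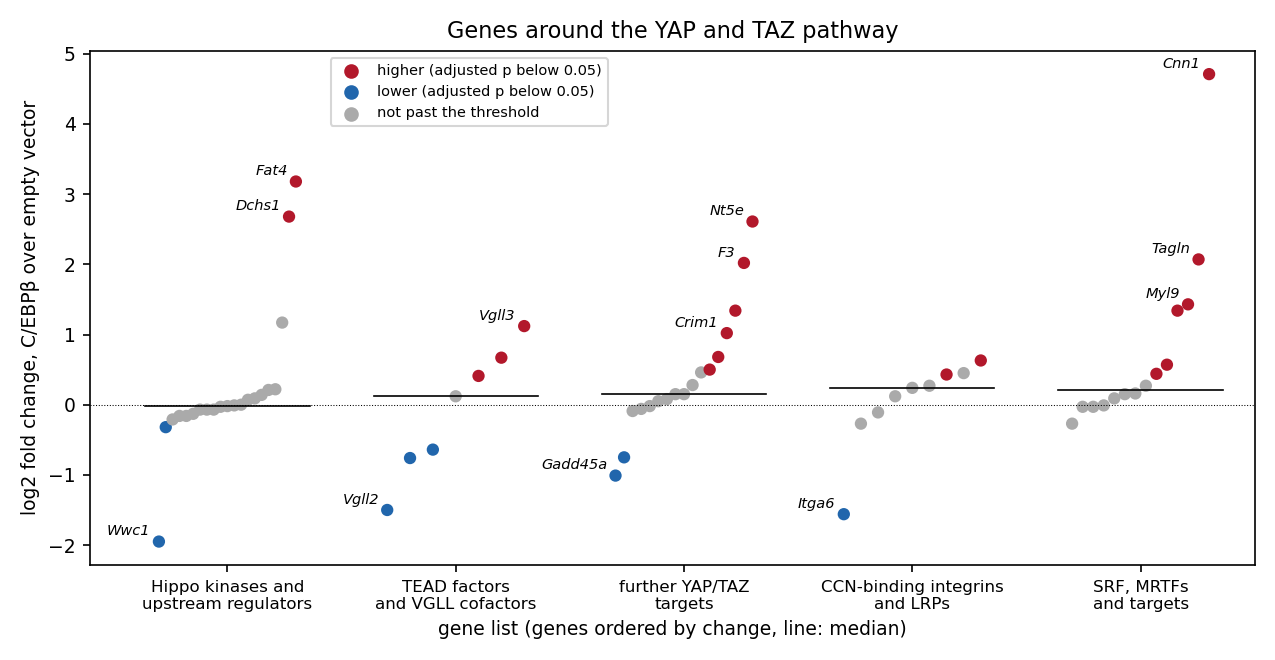
Log2 fold change (C/EBPβ over empty vector) of every tested gene in 5 lists around the pathway, coloured by the test, with a line at each list's median. The medians lie between -0.02 and 0.24, and the TEAD and VGLL list has 3 genes higher and 3 lower.

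For each of the 4 genes that passed, the most alike expression pattern over the 4 libraries was sought among 10043 protein-coding genes averaging 5 CPM or more. Likeness was the root mean square difference of log2 CPM after centring each gene on its own mean, and with 4 libraries many genes lie close. Tagln was nearest to Ctgf (0.0788), with 100.6 and 58.8 CPM against 433.6 and 238.7 CPM, and like Ctgf it was higher in replicate 1 of each group. Igf2, a growth factor, was nearest to Wisp2 (0.0837), with 14.4 and 10.3 against 63.5 and 30.3 CPM. Ecm1, a secreted matrix protein, was nearest to Amotl2 (0.0314), with 331.6 and 290.9 against 669.9 and 525.7 CPM. Tmod1, a tropomodulin that caps actin filaments, was nearest to Nov (0.187), with 8.68 and 7.98 against 3.22 and 3.37 CPM. This was the largest of the 4 distances. Nov itself averaged under 5 CPM, so genes at its own level were not searched.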

How the data were processed

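Messenger RNA of 4 strand-specific libraries was used, grouped by title. The deposited counts are whole-number fragment counts per gene, made per the file headers with featureCounts 1.5.1 (reverse-stranded, paired) on GENCODE M12, without multi-mapping or ambiguous reads; the submitters' processing notes name HISAT2 2.0.4, GRCm38, featureCounts 1.4.6 and DESeq2. The authors' deposited table has, per gene, a mean signal named base mean, a log2 fold change, that value's SE, a test score, and p-values before and after adjustment. Its base means were 0.902 to 7.58 times those computed from these 4 libraries for the 10 genes (Nov highest, then Wisp2 at 4.1), and the sources used here do not name its libraries.

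Genes were filtered with filterByExpr (minimum count 10, minimum total 15), which left 15078 of 49585, and scaled by TMM. The groups were compared without covariates by edgeR 4.0.16 (glmQLFTest, R 4.3.3), with Benjamini-Hochberg adjustment over all genes tested and a threshold of 0.05. The SE of a log2 fold change was derived from the F statistic. CPM are TMM-scaled, except summed marker levels and the CPM of 1 count, which use library totals. TPM used the exon lengths in the count files. The test was checked on simulated counts. Replicates of a group differed beyond counting noise (chi-square per degree of freedom 22.3 and 26.7).

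The 10 genes and all lists were chosen with earlier results of these data known. Named are the 10 genes, Wisp3 and Cebpb, and from each pathway list up to 3 called genes per direction, ranked by adjusted p; each called gene's nearest pattern is added. Myoblast and other cell markers, Tead1, Vgll1, Itgam and Vcl were named after their values were seen. Alternatives were RLE scaling, library totals, DESeq2 1.42.0, no filter, a filter of 5 CPM in 2 libraries, a replicate block, and leaving out each library. Marker sums without the gene that moved them most were added after seeing the data.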

Additional observations from a re-analysis of the deposited data

How the results depend on the processing

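With 2 libraries per group, precision is limited by their number. The 4 calls among the 10 genes kept their direction in every alternative that tested them, and Ctgf and Amotl2 passed in all 10. Under the filter of 5 CPM in 2 libraries, 0 of the 10 genes were called lower, because Nov was not tested, and the Hippo kinases and upstream regulators had 1 call higher, because fewer genes were tested. Leaving out 1 library gave 1527 to 2076 genes higher and 966 to 1386 lower over all genes, the 966 without C/EBPβ replicate 1. It gave 2 to 4 of the 10 genes higher and 1 lower, and 2 to 3 Hippo regulators higher and 1 to 3 lower. It gave 1 to 2 CCN receptors higher and 1 to 2 lower, and 5 to 6 SRF genes higher and 0 to 1 lower. The only reversal was that of Ankrd1 without empty vector replicate 1 (log2 fold change 0.01, and -0.11 without empty vector replicate 2); the cause was not tested. Without C/EBPβ replicate 1, without C/EBPβ replicate 2 and with no filter, edgeR estimated infinite prior degrees of freedom, so the spread was pooled over genes; in fits that leave 1 library in a group, that library is assumed to vary like the other group. The labels do not say whether same-numbered libraries share more than a number. The correlation of their deviations from the group means was 0.147 across 15078 genes, and with the replicate block 2573 genes were higher and 1963 lower, and 4 of the 10 genes were higher, Cyr61 among them (0.48, adjusted p = 4.14e-04).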
